A study of Danio rerio with 4 samples.

Results

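Leukocyte marker genes were examined in endothelial cells sorted from the trunk and tail of zebrafish embryos. The 10 genes were chosen by symbol as markers of white blood cells in general (spi1b, lcp1, coro1a and ptprc), of macrophages (csf1ra, mpeg1.1, marco and mmp13a) and of neutrophils (lyz and mpx). All 10 were found among the 29027 rows of the deposited tables. The tested libraries came from homozygous tie1 mutant embryos (tie1-/-) that had blood flow, and were compared with libraries from their wild-type and heterozygous siblings, which were not separated by genotype (tie1+/?). All embryos were taken at 47 hours post fertilization and carried Tg(kdrl:EGFP), an endothelial reporter, and Tg(lyve1:DsRed), a reporter of venous and lymphatic endothelium. Cells positive for both reporters were sorted, and the protocols name no further marker in the gate. RNA was amplified with a low-input kit, and each group had 2 libraries, with expression given as TPM, a level scaled by transcript length and by library.

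Blood cells of the zebrafish embryo include macrophages, which engulf dying cells and microbes, and neutrophils, which carry granules of antimicrobial enzymes. Both depend on the transcription factor PU.1, encoded by spi1b, and both travel in and along the vessels from which these endothelial cells were taken. Macrophages are recognised by receptors such as that for colony stimulating factor, and neutrophils by granule enzymes such as lysozyme and myeloperoxidase, although lysozyme is also made by other myeloid cells. Labelled as endothelial, the libraries contained endothelial transcripts: kdrl had 322 and 47.2 TPM in the tie1 mutants and 952 and 1009 TPM in the siblings, and lyve1b had 608 and 175 TPM in the tie1 mutants and 1410 and 1044 TPM in the siblings.

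The libraries differed in the level that unexpressed genes take. In 318 rows for sensory receptors and gamma crystallins, presumed silent here, the 95th percentile was 13.9 and 18.7 TPM in the tie1 mutants and 3.93 and 6.38 TPM in the siblings. That percentile is called the background limit of a library. It was exceeded by 4887 and 3133 rows in the tie1 mutants and by 9994 and 9131 rows in the siblings. The median log2 fold change of all 28301 genes tested was 1.17, higher in the tie1 mutants. It was -1.33 among the 3987 genes with a mean of at least 20 TPM and 1.26 among the 24314 genes under that level. The targeted gene tie1, a receptor of endothelial cells, had 16.7 and 10.2 TPM in the tie1 mutants and 61.0 and 31.0 TPM in the siblings (log2 fold change -1.66, adjusted p = 0.0605 by limma).

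Of the 10 leukocyte markers, lyz, lcp1 and coro1a fell in the tie1 mutants, and csf1ra, marco and mmp13a were called higher at levels that exceeded the background limit in none of the 4 libraries. The remaining 4 genes, spi1b, ptprc, mpeg1.1 and mpx, did not pass the test. Calls were made with limma on log2(TPM + 1) at an adjusted p-value under 0.05. Over all genes tested the share called lower was 4.43% and the share called higher was 44.6%, so 3 of 10 members called higher lies under the share of all genes. Among genes with a mean of at least 20 TPM, 28.1% were called lower, and 3 of the 3 members at that level were. That level is a mean over all 4 libraries, which coro1a reached through its sibling values alone, so this count is a description. Among genes under that level 51.7% were called higher, against 3 of the 7 members there. The libraries of the groups did not overlap for 3 members that were lower and 4 that were higher, against 12.0% and 65.8% of all genes, and 63.5% of genes with a mean of at least 20 TPM were lower without overlap. By level, lyz exceeded the background limit in all 4 libraries, as did 6.94% of genes tested, and 3 of the 10 markers exceeded it in no library, as was so for 55.8% of genes tested. With 2 libraries a group, the exact permutation p-value of a single gene cannot go below 0.333 (two-sided). It takes that value for any gene whose groups do not overlap. Among the members it was 0.333 for lyz, lcp1 and coro1a and also for csf1ra, marco, mmp13a and mpx. After median-of-ratios rescaling, quantile normalization or background subtraction 0 of the 10 markers passed, and 0 passed with no filter on low values. The log2 fold changes of lyz were then -4.87, -2.37, -4.17 and -3.52 (adjusted p = 0.180, 0.390, 0.102 and 0.0835 by limma). In bulk samples fewer leukocytes among the sorted cells and less RNA per leukocyte cannot be told apart. Most genes with a mean of at least 20 TPM were also lower in the mutants. The part of that shift in the falls of lyz, lcp1 and coro1a was not tested.

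**Figure D1:**
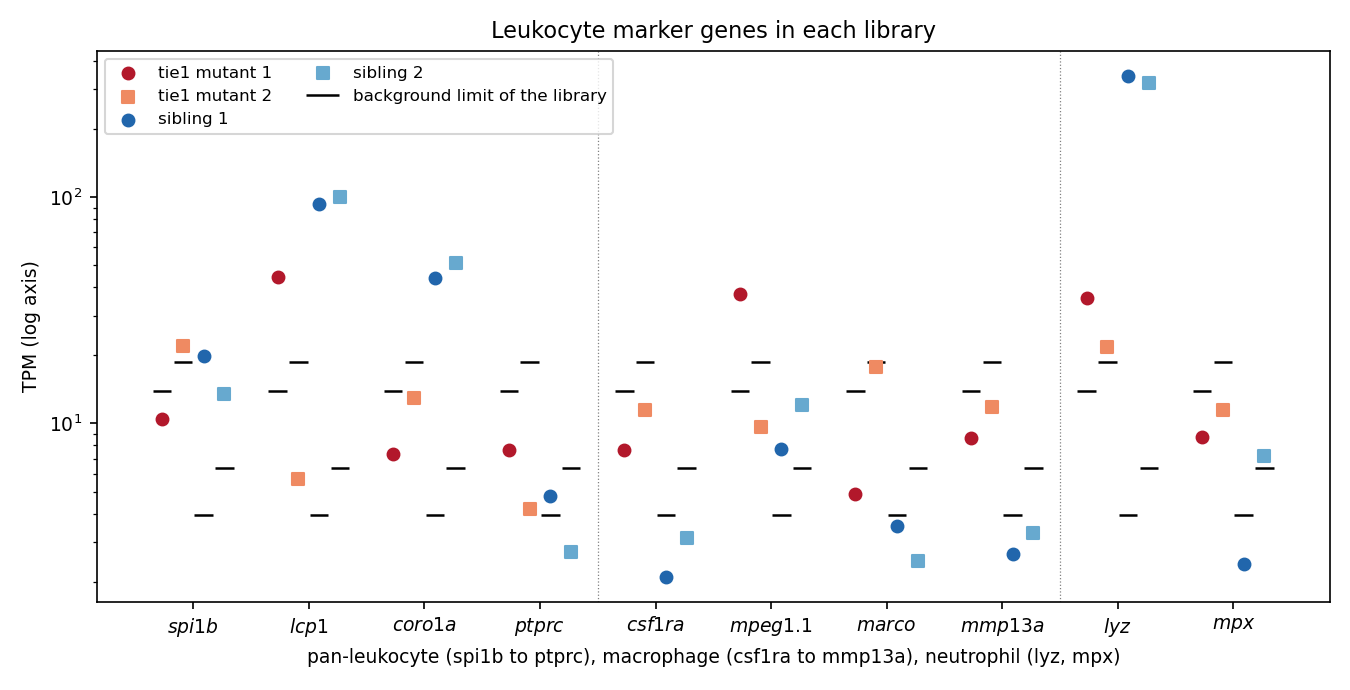
TPM of the 10 leukocyte markers on a log axis, with 1 point per library (tie1 mutants in red tones, siblings in blue tones). Short black bars mark the background limit of each library, and only lyz lies above its bar in all 4 libraries.

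The neutrophil granule gene lyz, which encodes the antibacterial enzyme lysozyme, was the most abundant member. It had 35.9 and 21.8 TPM in the tie1 mutants and 344 and 319 TPM in the siblings. Both mutant libraries lay far below both sibling libraries, and the sibling libraries differed 1.08-fold from each other and the mutant libraries 1.65-fold. The mean was 28.9 ± 9.97 TPM in the tie1 mutants and 332 ± 17.3 TPM in the siblings (SD, n = 2 each), 11.5-fold lower in the mutants. The log2 fold change was -3.52 with an SE of 0.93 (adjusted p = 0.00592 by limma). The level of lyz was 2.59 and 1.17 times the background limit in the tie1 mutants and 87.4 and 50.0 times the limit in the siblings. In rank, lyz stood at percentile 92.3 and 92.0 of all rows in the tie1 mutants and at percentile 98.6 and 98.8 in the siblings. It made up 20.8% and 16.9% of the summed TPM of the 10 markers in the tie1 mutants and 65.6% and 62.1% in the siblings. These shares had no background subtracted, which lowers the mutant shares more. The median of the silent rows was 8.41 and 11.1 TPM in the tie1 mutants and 2.27 and 3.68 TPM in the siblings. With any 1 library left out its log2 fold change lay between -3.86 and -3.17, and the limma adjusted p-value was 0.150 without sibling replicate 1 and under the threshold without each of the others.

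The other neutrophil member behaved differently in level. The gene mpx encodes myeloperoxidase, the peroxidase of neutrophil granules. It had 8.70 and 11.4 TPM in the tie1 mutants and 2.39 and 7.16 TPM in the siblings. The mutant values were above both sibling values, but 7.16 TPM in sibling replicate 2 was the single value above a background limit. Its log2 fold change of 1.06 with an SE of 0.56 (adjusted p = 0.0920 by limma) was under the median of all genes and did not pass the test. Without sibling replicate 2 it was 1.7 and was called higher (adjusted p = 0.0193 by limma). In the siblings, whose limit was lower, the libraries thus held abundant lyz with mpx at or near background.

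Among the pan-leukocyte members, lcp1 encodes L-plastin, an actin-bundling protein of white blood cells. It had 44.3 and 5.69 TPM in the tie1 mutants and 93.7 and 99.7 TPM in the siblings. The siblings were nearly equal, whereas the mutant libraries differed 7.78-fold from each other. In tie1 mutant replicate 1 lcp1 was 3.19 times the background limit, at percentile 93.7 of all rows. In replicate 2 it was under that library's limit, at percentile 8.13. The log2 fold change was -2.49 with an SE of 0.85 (adjusted p = 0.0201 by limma). It was -1.11 without tie1 mutant replicate 2 (limma adjusted p = 0.317) and -3.87 without tie1 mutant replicate 1, so the size of the fall depended on the mutant library used. The call was also lost without sibling replicate 1 (adjusted p = 0.162) and without sibling replicate 2 (adjusted p = 0.0632, both by limma).

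The gene coro1a encodes coronin, an actin regulator of white blood cells. It had 7.33 and 13.0 TPM in the tie1 mutants and 43.9 and 51.0 TPM in the siblings. Both mutant values lay under the background limit and both sibling values lay well above it, at 11.2 and 7.98 times the limit. The log2 fold change was -2.16 with an SE of 0.76 (adjusted p = 0.0221 by limma). Its call was lost without tie1 mutant replicate 1 (adjusted p = 0.0869 by limma) and without sibling replicate 1 (adjusted p = 0.138). The log2 fold change was -3.46 under median-of-ratios scaling and -4.75 when background was subtracted. A remaining mutant level of coro1a below 13.9 TPM in replicate 1 or below 18.7 TPM in replicate 2 was not detectable over background. Related coronin rows differed in direction, and none passed. The values of coro1cb were 8.45 and 14.2 TPM in the tie1 mutants and 36.4 and 26.7 TPM in the siblings, with a log2 fold change of -1.43 (limma adjusted p = 0.0867). For coro1ca the groups overlapped (log2 fold change -0.49, limma adjusted p = 0.595). The row coro1b was higher in both mutant libraries (log2 fold change 1.15, limma adjusted p = 0.0587), under the background limit in all 4 libraries.

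The remaining pan-leukocyte members did not pass. The transcription factor gene spi1b had 10.5 and 22.0 TPM in the tie1 mutants and 19.8 and 13.5 TPM in the siblings. The groups overlapped, and the values of 22.0, 19.8 and 13.5 TPM were above their library's limit. Its log2 fold change was -0.10 with an SE of 0.71 (adjusted p = 0.912 by limma), and its sign changed with the scaling and with the libraries used. The receptor phosphatase gene ptprc, which encodes the common leukocyte antigen, had 7.65 and 4.17 TPM in the tie1 mutants and 4.78 and 2.70 TPM in the siblings. Only the 4.78 TPM of sibling replicate 1 exceeded a limit, by a factor of 1.22. The log2 fold change of ptprc was 0.53 with an SE of 0.53 (adjusted p = 0.379 by limma).

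Of the macrophage members, mpeg1.1 alone was above background. It encodes perforin-2, a pore-forming protein of macrophages, and its promoter is widely used to label these cells in zebrafish. It had 37.2 and 9.64 TPM in the tie1 mutants and 7.75 and 12.0 TPM in the siblings. Mutant replicate 1 stood above the other 3 libraries, at 2.68 times its limit, and mutant replicate 2 was under its own limit. Both sibling values were above the limit, at 1.97 and 1.88 times. The mean was 23.4 ± 19.5 TPM in the tie1 mutants and 9.89 ± 3.02 TPM in the siblings (SD, n = 2 each). The log2 fold change was 0.92 with an SE of 0.68 (adjusted p = 0.236 by limma), and without mutant replicate 1 it was -0.0045. The related rows mpeg1.2 and mpeg1.3 exceeded the limit in 0 of the 4 libraries, and reads of such copies could be shared among these rows in the authors' quantification.

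The other macrophage members stayed under the background limit throughout. The gene csf1ra, a receptor for colony stimulating factor that zebrafish use in macrophages and in yellow pigment cells, had 7.64 and 11.5 TPM in the tie1 mutants and 2.1 and 3.12 TPM in the siblings. The scavenger receptor gene marco had 4.89 and 17.8 TPM in the tie1 mutants and 3.52 and 2.47 TPM in the siblings. For mmp13a, a collagenase gene, the values were 8.62 and 11.9 TPM in the tie1 mutants and 2.66 and 3.27 TPM in the siblings. All 3 genes were higher in both mutant libraries than in both sibling libraries, as were 65.8% of all genes tested. Their log2 fold changes were 1.54, 1.41 and 1.49 with SEs of 0.53, 0.53 and 0.54 (limma adjusted p = 0.0209, 0.0275 and 0.0235, in that order). These differ from the median of all genes by 0.37, 0.24 and 0.33, each less than its SE. For marco the log2 fold change was 0.57 without tie1 mutant replicate 2 and 2.25 without tie1 mutant replicate 1, and its call was lost with any 1 library left out (adjusted p = 0.0547 to 0.579 by limma). The calls of csf1ra and mmp13a were lost without each library except sibling replicate 2.

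**Figure D2:**
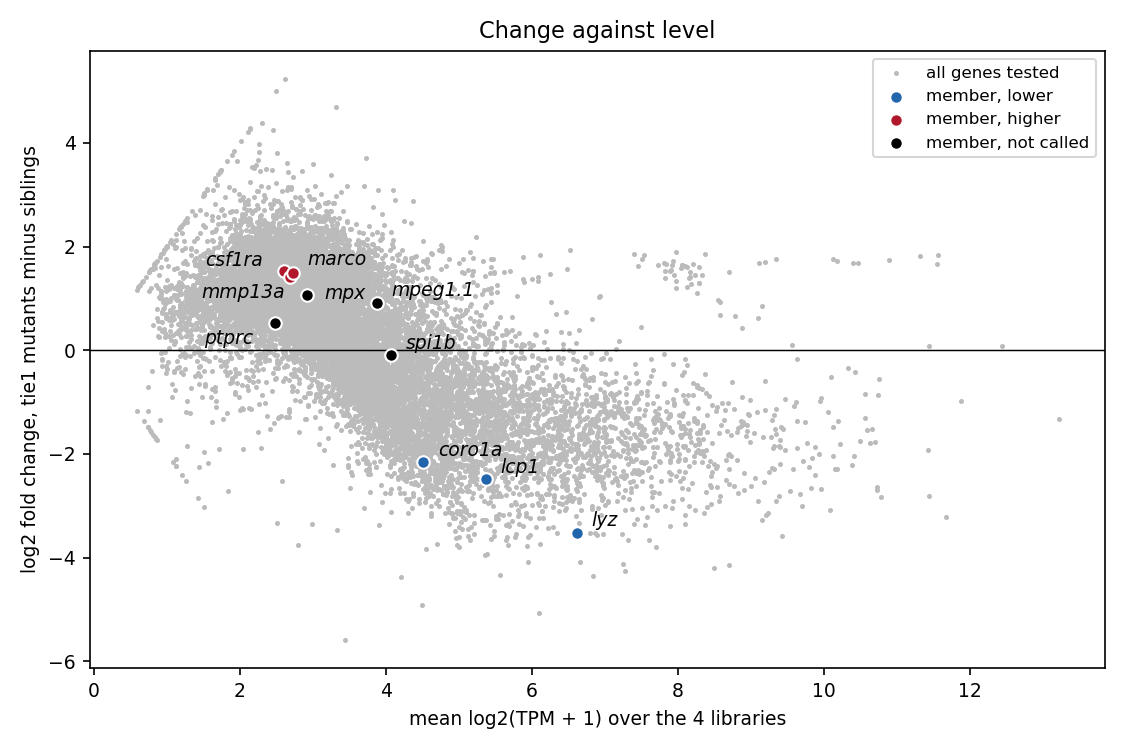
Log2 fold change (tie1 mutants minus siblings) against mean log2(TPM + 1) over the 4 libraries for all 28301 genes tested (grey), with the 10 markers coloured by call. Genes of low level lie mostly above 0 and abundant genes mostly below it, and the markers range between lyz at -3.52 and csf1ra at 1.54.

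The order of the markers by level differed between the groups. In the siblings lyz was followed by lcp1, coro1a and spi1b, whose means were 332, 96.7, 47.4 and 16.6 TPM. In the tie1 mutants the means were 28.9 TPM for lyz, 25.0 TPM for lcp1, 23.4 TPM for mpeg1.1 and 16.2 TPM for spi1b, and these neighbours were not separated from each other beyond their spread, since lcp1 ranged from 5.69 to 44.3 TPM. Within a group the spread of a marker was wider in the mutants for 9 of the 10 genes. The median absolute log2 difference between the libraries of a group was 0.74 in the tie1 mutants and 0.40 in the siblings for the 10 markers, against 0.52 and 0.57 for all genes tested. The number of markers above the background limit was 3 and 2 in the tie1 mutants and 6 in each sibling library. Of all rows, 16.8% and 10.8% exceeded it in the tie1 mutants and 34.4% and 31.5% in the siblings. The 3 markers above it in mutant replicate 1 were lcp1, mpeg1.1 and lyz, and the 2 in mutant replicate 2 were spi1b and lyz.

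The summed TPM of the 10 markers was 173 and 129 in the tie1 mutants and 524 and 514 in the siblings, a log2 ratio of the group means of -1.78. With lyz left out of the sum, a choice made after its values were seen, the log2 ratio was -0.62. Endothelial markers were also lower in the mutants. Of 21 endothelial genes 12 fell and 1 rose (kdr, which exceeded the limit in 0 libraries), against 4.43% and 44.6% of all genes. Of genes with a mean of at least 20 TPM, 28.1% were called lower, with a median log2 fold change of -1.33 over that level. The median of the 21 endothelial genes was -2.05. Their summed TPM was 2294 and 829 in the tie1 mutants and 6557 and 5089 in the siblings. The marker sum was therefore also set against the endothelial sum within each library, after the median of the silent rows was subtracted from every gene and negative results were set to 0. Per 100 TPM of endothelial markers there were 1.30 and 1.80 TPM of lyz in the tie1 mutants and 5.25 and 6.30 TPM in the siblings. The 9 other markers together had 3.17 and 3.49 TPM per 100 in the tie1 mutants and 2.46 and 3.29 TPM in the siblings. Relative to endothelial transcripts, lyz was thus lower in both mutant libraries. The pooled shares of the 9 other markers overlapped between the groups. With negative results set to 0, genes at background still add to such a pool. The overlap therefore cannot show that the 9 markers kept to the endothelial level. In tie1 mutant replicate 2, spi1b alone of the 9 was above the background limit. The pool does not show its single genes. For coro1a, tie1 mutant values of 7.33 and 13.0 TPM stood against silent-row medians of 8.41 and 11.1 TPM. Its sibling values of 43.9 and 51.0 TPM stood against medians of 2.27 and 3.68 TPM. By contrast, mpeg1.1 had 37.2 TPM in tie1 mutant replicate 1, above the median of 8.41 TPM. In tie1 mutant replicate 2 it had 9.64 TPM, under the median of 11.1 TPM, so the contrast rests on replicate 1. Its sibling values of 7.75 and 12.0 TPM were above their medians. The shares are descriptions with no test, and the part of the endothelial fall and of the higher mutant background in the fall of lyz was not tested.

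**Figure D3:**
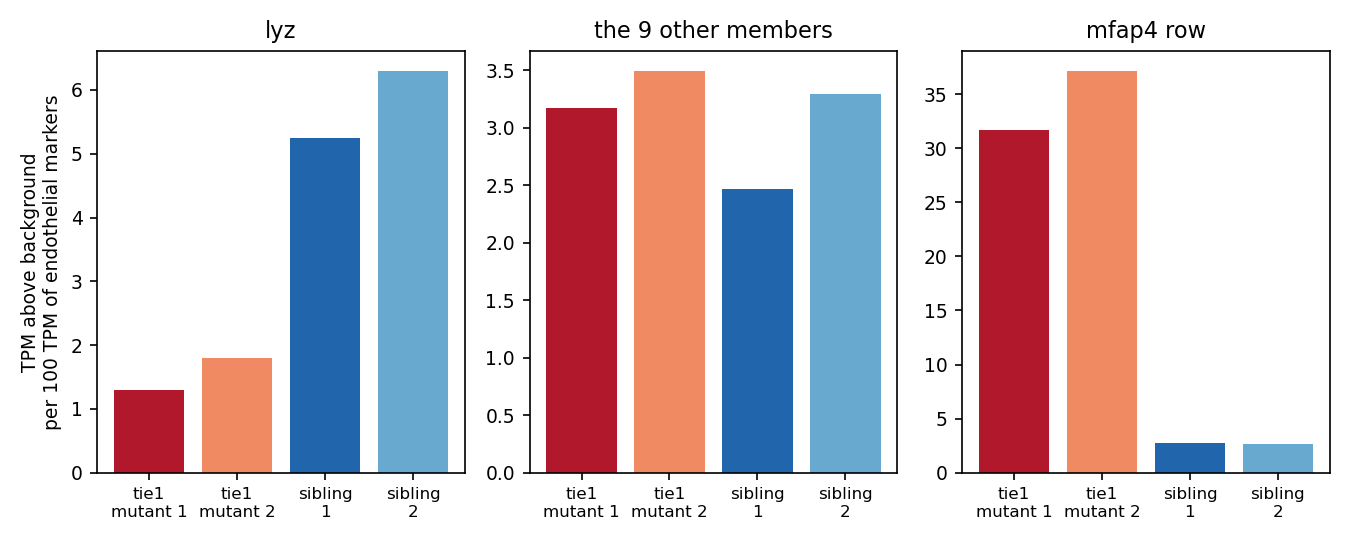
Background-subtracted TPM of lyz, of the 9 other markers and of the mfap4 row, each per 100 background-subtracted TPM of 21 endothelial markers, in the 4 libraries (bars, 1 library each, with a separate axis in each panel). The lyz bars are 1.30 and 1.80 in the tie1 mutants and 5.25 and 6.30 in the siblings, whereas the mfap4 bars are 31.7 and 37.1 in the tie1 mutants and 2.73 and 2.66 in the siblings. The endothelial sum was 2119 and 597 TPM in the tie1 mutants and 6510 and 5012 TPM in the siblings, which raises every mutant bar. The mfap4 row itself had a log2 fold change of 1.34 and did not pass (limma adjusted p = 0.215).

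Other leukocyte genes were read from lists beside the members. Of 16 further pan-leukocyte genes tested 2 fell, against 4.43% of all genes and 28.1% of those with a mean of at least 20 TPM. The median log2 fold change of the 16 was 0.37, under the 1.17 of all genes. The chemokine receptor gene cxcr4b, which guides migrating cells and is also used by endothelium, fell, with 9.23 and 12.7 TPM in the tie1 mutants and 36.3 and 54.5 TPM in the siblings (log2 fold change -1.95, limma adjusted p = 0.0313). The second gene that fell was the lymphoid transcription factor gene ikzf1 (log2 fold change -1.74, limma adjusted p = 0.0333), named after its values were seen. For cxcr4b and ikzf1 both mutant values lay under the background limit and both sibling values above it. The most abundant genes of the list did not pass. The GTPase gene rac2, used by neutrophils to move, had 72.7 and 10.7 TPM in the tie1 mutants and 71.9 and 67.5 TPM in the siblings. The oxidase subunit gene cyba had 99.2 and 25.5 TPM in the tie1 mutants and 17.1 and 25.2 TPM in the siblings. For arpc1b, an actin nucleation subunit, the values were 151 and 56.1 TPM in the tie1 mutants and 281 and 381 TPM in the siblings.

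Of 21 further macrophage genes tested, 4 were called higher and 1 fell, against 44.6% and 4.43% of all genes. Their median log2 fold change was 0.92, under the 1.17 of all genes. The fall was in apoeb, an apolipoprotein gene that is also expressed in other tissues, with 724 and 178 TPM in the tie1 mutants and 2588 and 1973 TPM in the siblings (log2 fold change -2.65, limma adjusted p = 0.0196). The 4 called higher included the complement gene c1qc (log2 fold change 1.79, limma adjusted p = 0.0121) and the microglial receptor gene p2ry12 (log2 fold change 1.73, limma adjusted p = 0.0145), both under the limit in all 4 libraries. The row mfap4, named for a secreted glycoprotein used as a macrophage marker in zebrafish, had 680 and 233 TPM in the tie1 mutants and 180 and 137 TPM in the siblings. Both mutant values were above both sibling values, with a log2 fold change of 1.34 (SE 0.95) that did not pass (limma adjusted p = 0.215). It was -0.04 after median-of-ratios rescaling, 2.76 with quantile normalization and 1.32 after background subtraction. Without tie1 mutant replicate 2 the value for mfap4 was 2.11 and was called (adjusted p = 6.35e-04 by limma), and without tie1 mutant replicate 1 it was 0.57 (adjusted p = 0.317). The tables hold 13 further numbered rows of this family, which summed to 1949 and 840 TPM in the tie1 mutants and to 666 and 351 TPM in the siblings. Of these 13 rows 5 were called higher, against 44.6% of all genes. Each of the 5 was under the background limit in tie1 mutant replicate 2 and in sibling replicate 2. The median log2 fold change of the 13 rows was 1.53. It was 0.25 after median-of-ratios rescaling, 1.73 with quantile normalization and 1.39 with background subtraction, and 0 rows were called in any of these 3. With no filter on low values 0 rows were called as well. Near-identical copies can share reads, so the level of the single mfap4 row is uncertain. The receptor gene havcr1 had 139 and 20.6 TPM in the tie1 mutants and 39.9 and 35.3 TPM in the siblings and did not pass (limma adjusted p = 0.611).

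Of 10 further neutrophil genes tested, 2 fell and 3 were called higher. Among all genes, the shares were 4.43% lower and 44.6% higher. By level, 28.1% were lower at a mean of 20 TPM or more, and 51.7% higher under it. These 10 genes had a median of -0.16 in log2 fold change, against 1.17 over all genes. The proteoglycan gene srgn, whose product packs granules in mammalian leukocytes, had 94.0 and 20.1 TPM in the tie1 mutants and 242 and 237 TPM in the siblings. Its log2 fold change was -2.42 with an SE of 0.93 (adjusted p = 0.0294 by limma). In all 4 libraries srgn was above the limit, but in the tie1 mutants by unlike factors, 6.76 and 1.08. The actin-binding gene cfl1l also fell (log2 fold change -2.03, limma adjusted p = 0.0262) and is named after its values were seen. Its mutant values, 13.0 and 7.62 TPM, were both under the limit. The gene nccrp1 had 100 and 46.9 TPM in the tie1 mutants and 251 and 167 TPM in the siblings, and lect2l had 40.4 and 55.4 TPM in the tie1 mutants and 38.2 and 28.5 TPM in the siblings. Neither passed (limma adjusted p = 0.140 and 0.609, in that order), and both values of lect2l, named for a chemotactic protein of leukocytes, were higher in the mutants as deposited. The receptor genes csf3r and illr4 were called higher (log2 fold changes 1.83 and 1.62, limma adjusted p = 0.0105 and 0.0178) at levels under the limit in all 4 libraries. Of the 4 neutrophil genes above the limit in all 4 libraries, members included, lyz and srgn fell, and nccrp1 and lect2l did not pass. The log2 fold change of -2.42 for srgn stood beside a median of -2.05 for the 21 endothelial genes. An endothelial part in the srgn values was not tested.

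**Figure D4:**
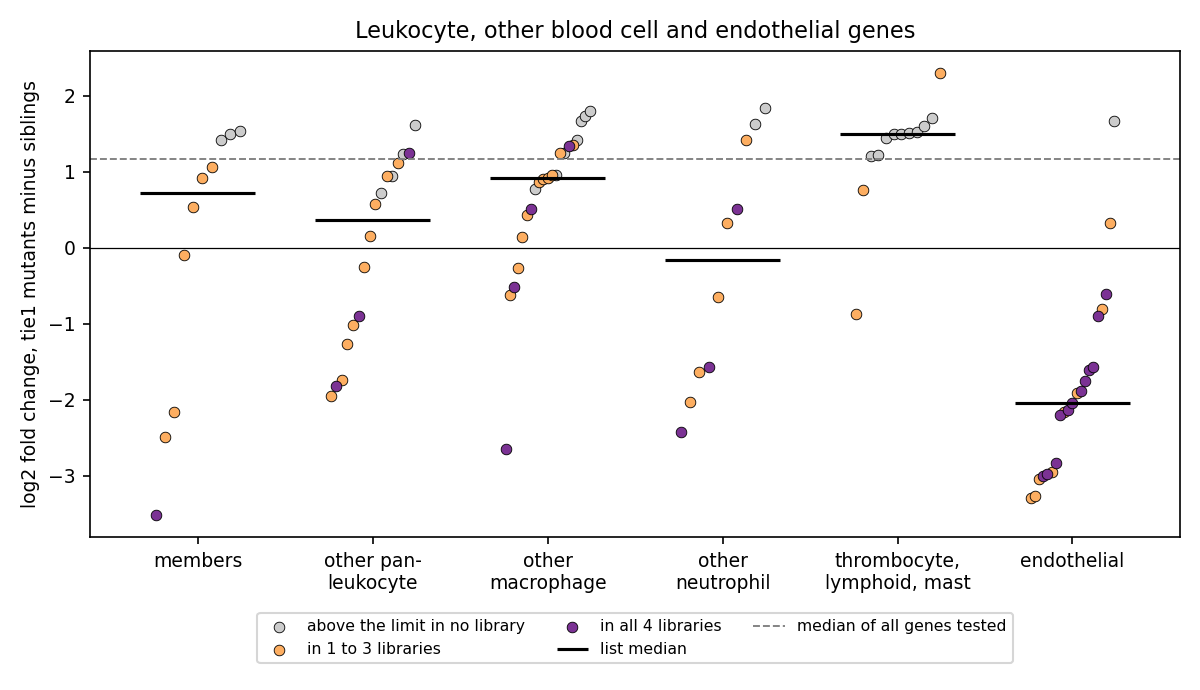
Log2 fold changes (tie1 mutants minus siblings) of the members and of 5 other gene lists, with 1 point per gene, coloured by the number of libraries in which it exceeded the background limit. Grey points, under the limit in every library, lie above 0 in each list that has them, and the endothelial list has the lowest median, -2.05.

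Markers of other blood cells were read in the same way. Of 12 thrombocyte, lymphoid and mast cell genes, 10 were called higher and 0 lower, against 44.6% and 4.43% of all genes and 51.7% called higher of genes with a mean under 20 TPM, and 9 of the 12 exceeded the background limit in 0 of the 4 libraries. Among the 12, the B cell gene cd79a had 10.5 and 28.7 TPM in the tie1 mutants and 1.28 and 5.19 TPM in the siblings (log2 fold change 2.30, limma adjusted p = 0.00379). Only the 28.7 TPM of mutant replicate 2 was above a limit, by a factor of 1.54. Some silent rows pass that limit by its definition, so these values do not show B cells in the sort. The mast cell gene cpa5 had 10.8 and 15.2 TPM in the tie1 mutants and 9.09 and 62.3 TPM in the siblings and did not pass. Blood progenitor genes included the factor genes cebpa and cebpb, which act in myeloid and other cells. Of the 6 tested, cebpb fell (429 and 88.5 TPM in the tie1 mutants, 2819 and 1103 TPM in the siblings, log2 fold change -3.17, limma adjusted p = 0.0112), as did cebpa (7.08 and 7.05 TPM in the tie1 mutants, 46.1 and 25.4 TPM in the siblings, log2 fold change -2.13, limma adjusted p = 0.0189). Over all genes 4.43% were called lower, and 28.1% of those with a mean of at least 20 TPM. The row of runx1 was listed at 0 in all 4 libraries.

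Red cell genes gave another measure of blood RNA in the sort. The embryonic globin gene hbbe1.1 had 1207 and 369 TPM in the tie1 mutants and 3126 and 2443 TPM in the siblings (log2 fold change -2.05, limma adjusted p = 0.0405). The summed TPM of 8 erythroid genes was 2663 and 809 in the tie1 mutants and 5689 and 5218 in the siblings. After background subtraction the erythroid sum was 2597 and 721 TPM in the tie1 mutants and 5671 and 5188 TPM in the siblings. The endothelial sum was then 2119 and 597 TPM in the tie1 mutants and 6510 and 5012 TPM in the siblings. Relative to endothelial transcripts, erythroid RNA was thus not lower in the mutants, unlike lyz, with no test made. Of these 8 genes, 2 fell while 3 were called higher, where the shares among all genes were 4.43% and 44.6%. Pigment cell genes, read because csf1ra also marks yellow pigment cells, summed to 66.6 and 103 TPM in the tie1 mutants and 74.5 and 63.3 TPM in the siblings. Of 9 pigment genes tested, tyrp1b fell and 4 were called higher, against 4.43% and 44.6% of all genes. None, 0 of the 9, exceeded the limit in either mutant library. The part of these cells in the leukocyte marker values was not tested.

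The genes most like lyz across the 4 libraries were sought among 8242 rows above the background limit in at least 2 libraries, by the Euclidean distance between centred log2(TPM + 1) values. The nearest were psap at a distance of 0.30, capns1a at 0.34 and ube2l3b at 0.35. The lysosomal protein gene psap had 17.6 and 10.6 TPM in the tie1 mutants and 156 and 125 TPM in the siblings. Their log2 fold changes were -3.26, -3.57 and -3.77 in that order. With 4 libraries that differ in background, such likeness describes these libraries.

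**Figure D5:**
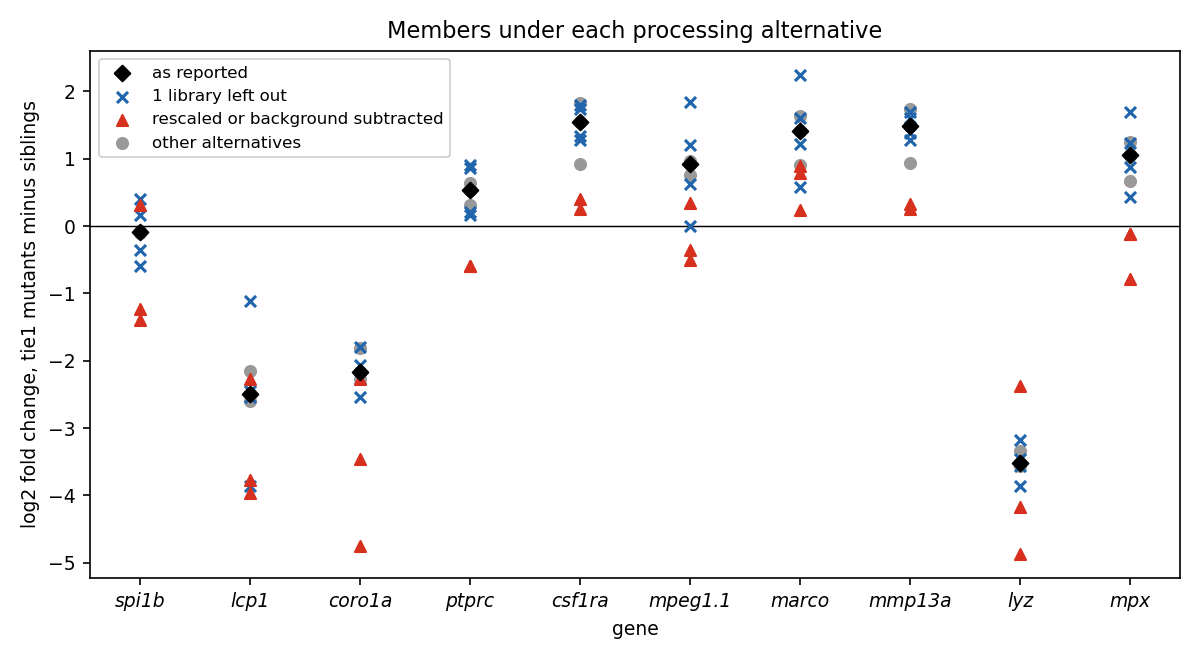
Log2 fold change of each member (tie1 mutants minus siblings) as reported (black diamonds) and under each processing alternative in which the gene was tested. Values of lyz, lcp1 and coro1a are below 0 under every alternative run, and those of spi1b, ptprc, mpeg1.1 and mpx lie on both sides of 0.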

How the data were processed

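For each library the authors gave a table of TPM, as named in the file headers; the submitters' processing notes name Trim Galore 0.6.6, cutadapt 2.8, HISAT2 2.2.1, SAMtools 1.7, StringTie 2.1.4 and the GRCz11 build, with no role or order. Annotation, filters and strand setting are not given in the sources used here. TPM keeps no read depth, so depth is unknown and no counting interval was computed. The listed rows summed to 602394 and 481065 TPM in the tie1 mutants and to 813042 and 736606 TPM in the siblings, and rows outside the tables are not analysed here.

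Groups and replicate numbers came from the sample titles (2 libraries each). No label states separate clutches, so the spread between the libraries of a group may be technical. limma 3.58.1 (R 4.3.3) was fitted on log2(TPM + 1) over the 28301 genes averaging 1 TPM or more, with group as the only term, an intensity trend, two-sided tests and Benjamini-Hochberg adjustment over all genes (threshold 0.05). The added 1 TPM shrinks the fold changes of low genes. It does not remove the higher background of the tie1 mutants, and genes with a mean under 20 TPM had a median log2 fold change of 1.26. In this fit the moderated variance was taken wholly from the trend over all genes. Neither an SE nor a p-value therefore measures a gene's own replicate spread. Exact permutation tests used scipy 1.17.1. The fit was tested on simulated data.

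The members and lists were chosen with earlier results of these data known, and the 20 TPM level and the ratio to endothelial markers were chosen after values were seen. Of 121 list symbols 114 matched a row, 4 of them by synonym. Named genes were all members and, from each list, up to 3 of the highest mean TPM and 2 called with the smallest adjusted p; those whose values bear on the members are printed, and a gene of the further pan-leukocyte list is not reported here. Alternatives covered pseudocounts, filters, the trend, scaling, background subtraction, a replicate block and each library left out.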

Additional observations from a re-analysis of the deposited data

How the results depend on the processing

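The directions of lyz, lcp1, coro1a, csf1ra, marco and mmp13a held under every alternative in which each was tested, but their calls did not. With no filter on low values 0 members were called higher and 0 lower (41 and 5 genes in all). Median-of-ratios rescaling, quantile normalization and background subtraction each left 0 members and 0 genes called. The genes tested were 28283, 28301 and 14211 and the members tested 10, 10 and 7, in that order. By limma, p-values before adjustment were under 0.05 for 1218 genes higher and 4110 lower with 0 and 3 members, 1335 and 1828 with 0 and 2 members, and 282 and 2719 with 0 and 2 members, in that order. The median of all log2 fold changes was 0.03, 0.05 and -1.14 under these 3, against 1.17 as reported. With no intensity trend 8103 genes were called higher and 1986 lower. With any 1 library left out, 0 to 3 members were called higher and 0 to 2 lower, and 460 to 14087 genes higher and 66 to 1723 lower; the lone library of a group was assumed to vary like the other group. The fewest lower calls came without sibling replicate 1. The cause of these changes was not tested.

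The log2 ratio of the summed TPM of the members was -3.16 after rescaling by the median of ratios, -2.96 after background subtraction, -0.62 without lyz and -2.01 to -1.59 with 1 library left out. Signs changed for ptprc (-0.60 after rescaling by the median of ratios and -0.60 with quantile normalization), for mpx (-0.11, -0.12 and, after background subtraction, -0.78), for mpeg1.1 (-0.35 after rescaling, -0.51 after background subtraction, and -0.0045 to 1.84 with 1 library left out, the lowest without tie1 mutant replicate 1) and for spi1b (0.32 after quantile normalization, and -0.60 to 0.41 with 1 library left out, including 0.41 without tie1 mutant replicate 1 and 0.17 without sibling replicate 1). With the replicate block 2 members were called higher and 2 lower, with 15263 genes higher and 666 lower. The libraries share only a number: the deviations of same-numbered libraries from their group means correlated with r = 0.13 across 28301 genes. TPM keeps no depth, and the background of 13.9 and 18.7 TPM in the tie1 mutants limits what low markers can show.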
